A study of Mus musculus with 12 samples.

Results

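CIDEA KO spheroids were compared between 24 h and 48 h of culture with Matrigel, from the 4 libraries whose labels give Cidea-KO 3D spheroids, 2 at each time, out of 12 libraries in the series. Both groups were of genotype Cidea -/- and came from a single subclone of R1 mouse ESCs (embryonic stem cells), in which CRISPR-Cas9 had removed the whole *Cidea* locus. The spheroids grew from ESCs in serum without LIF (leukaemia inhibitory factor) and with growth factor-reduced Matrigel, a basement membrane extract that is rich in laminin. The labels describe them as embedded in it, whereas the study's methods describe cells for molecular work as seeded on a Matrigel coat under medium that held Matrigel. Before the spheroid culture the same KO cells were kept in serum with LIF (2 libraries), and WT spheroids of the parental R1 line were sequenced at 24 h and 48 h (2 libraries each). Nothing here separates the loss of *Cidea* from other properties of this 1 clone. The labels do not say whether the 2 libraries of a group came from separate cultures of separate days. The paper describes them as independent samples and as biological replicates, without giving days. The p-values measure a spread between samples that was estimated over all 6 groups of the series, which may be technical in part.

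CIDEA sits at the contact sites of lipid droplets and promotes their fusion in fat-storing cells. Mouse ESCs kept with LIF are in the naive state of pluripotency, which LIF maintains through its receptor, the kinase JAK1 and the transcription factor STAT3. When LIF is withdrawn, the cells leave that state and pass through a formative phase, resembling the epiblast of the implanting embryo, before they become primed for germ layer formation. In a basement membrane gel the same cells polarise, form a rosette and open a lumen. In this transition the naive factors fall, while formative factors, DNA methyltransferases and epithelial genes rise.

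*Cidea* was at 0 counts in all 4 KO spheroid libraries and in both KO ESC libraries. A floor of 3 counts was worth 0.0784 to 0.104 CPM (counts scaled to a common library total) in these 6 libraries. In WT spheroids *Cidea* stood at 5.06 and 1.88 TPM (transcripts scaled to a common library total) at 24 h and at 0.974 and 0.836 TPM at 48 h. The labelled cell type was checked on 6 markers of mouse ESCs, and all were present in every KO spheroid library. The lowest value among them was 62.0 TPM, for *Nanog* in replicate 1 at 48 h. *Pou5f1* (Oct4), the core pluripotency factor, was the highest, with 1711 and 1651 TPM at 24 h and 1135 and 1310.0 TPM at 48 h.

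Replicate 1 at 24 h stood apart from the other 11 libraries. Its depth, 33.8 M estimated counts, lay inside the range of all libraries (29 to 38.5 M). After every library was thinned to 28.8 M counts, it held at least 1 count for 15481 genes, against 17627 to 19673 genes in the others. A total of 841 genes were at 0 in it with at least 10 counts in each of the other 3 KO spheroid libraries, whereas 17 genes were missing from replicate 2 at 24 h in the same sense, and 20 and 13 from the 48 h libraries. Those 841 genes had medians of 26, 37 and 28 counts in the 3 libraries that held them. *mt-Nd3*, a mitochondrial subunit of respiratory complex I chosen here after its values were seen, was listed at 0 in that library and at 431 TPM in its replicate.

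The same library also differed in the lengths of the transcripts that it held. Among 9761 genes with a mean log2 CPM of at least 3, the median of replicate 1 minus replicate 2 at 24 h went from 0.08 on the log2 scale for transcripts of under 1 kb to -0.41 for the 166 genes of over 8 kb. In the other 5 groups the corresponding medians stayed between -0.03 and 0.03. Against the mean of the 8 libraries of ESCs and of 48 h spheroids, the genes of over 8 kb had medians of -0.25 in replicate 1 at 24 h and 0.18 in replicate 2, of -0.15 and -0.18 in the KO libraries at 48 h, and of 0.18 and 0.14 in the KO ESC libraries. Replicate 1 thus lay below both 48 h libraries for long transcripts and replicate 2 above them, so the comparison at these lengths differs with the replicate that is kept. What part these properties had in any one change was not tested. The totals, most list counts and some single genes below are given with and without replicate 1. Where no second value is given, a change is from all libraries.

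**Figure D1:**
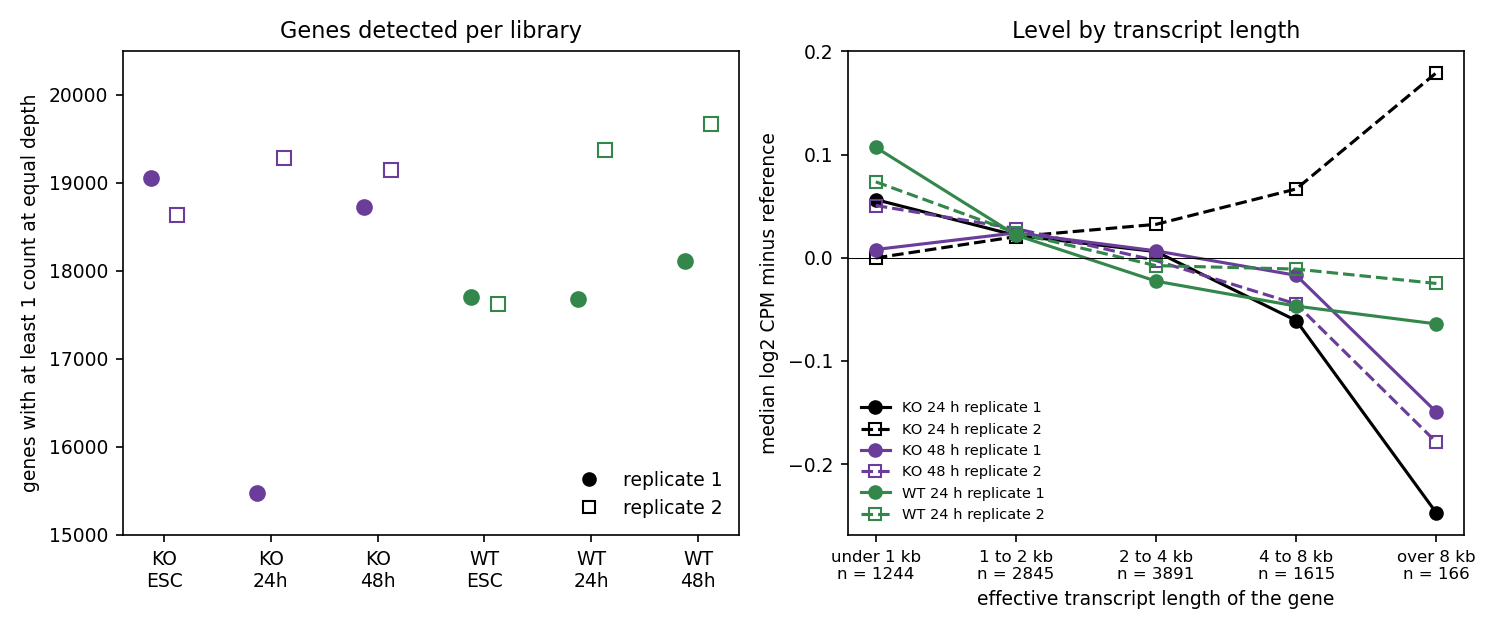
Left, genes with at least 1 count in each of the 12 libraries at an equal depth of 28.8 M counts (circles, replicate 1; open squares, replicate 2); replicate 1 of the KO at 24 h is the lowest, at 15481 genes. Right, median log2 CPM minus the mean of the 8 ESC and 48 h libraries, by effective transcript length in kb, for KO libraries at 24 h and 48 h and WT libraries at 24 h; the 2 KO libraries at 24 h part for transcripts of over 8 kb, at -0.25 and 0.18.

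From 24 h to 48 h, 1730 of 17424 genes tested (9.93%) passed an adjusted p of 0.05. The test, used for every call below, was the quasi-likelihood F-test of edgeR, with Benjamini-Hochberg adjustment over all genes. A total of 795 genes rose (4.56%) and 935 fell (5.37%), and the median log2 change over all tested genes was 0.03. Among the called genes 456 changed by at least 2-fold, of which 252 rose and 204 fell. Without replicate 1, 1523 of 18683 genes passed (8.15%), with 593 rising (3.17%) and 930 falling (4.98%). A total of 1194 genes passed both ways, 492 of them higher and 702 lower and none in opposite directions, which is 69.0% of the calls with all libraries and 78.4% of those without replicate 1. In limma on log2(TPM + 1), where both the test and the scale differ, 259 genes rose and 526 fell, and in edgeR with average transcript lengths as offsets 343 rose and 480 fell.

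Leaving out the other 24 h library had a larger effect. Without replicate 2 at 24 h, the comparison rested on the deviating library alone and 3726 genes passed, 2290 of them higher and 1436 lower. Without replicate 1 at 48 h 754 genes passed, and without replicate 2 at 48 h 1270. A lone library is assumed to vary like the other groups in these fits. All levels below are in TPM, which corrects for transcript length, and are given in the order of replicate 1 and replicate 2, whereas all changes are log2 differences of counts with their standard errors (SE) from the fit.

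The largest rises and falls were taken from 1152 protein-coding genes that were called in the same direction with and without replicate 1 and had at least 2 CPM on average. *Sema6a*, a transmembrane semaphorin, had 3.60 and 1.1 TPM at 24 h and 22.6 and 19.2 TPM at 48 h, a change of 4.78 (SE 0.34, adjusted p = 7.75e-07) and of 4.26 without replicate 1. For *Spon1*, which encodes an extracellular matrix protein, the levels were 0.0973 and 0.0945 TPM and then 1.55 and 1.42 TPM (4.01 ± 0.82 SE). In both genes both 48 h libraries lay above both 24 h libraries, which their selection from the largest called rises makes likely.

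Other rises in this set began from levels near 0. *Mal2*, which encodes a membrane protein of apical transport in epithelia, had 0 and 13 counts at 24 h and 215 and 130 counts at 48 h (4.71 ± 1.06 SE, adjusted p = 0.0063, and 3.72 without replicate 1). *Zfp36l3*, which encodes an RNA-binding zinc finger protein, had 0 and 11 counts and then 164 and 111 counts (4.63 ± 1.18 SE). *Gm20721*, a gene model with no assigned role, had 5 and 14 counts and then 195 and 66 counts (3.73 ± 0.79 SE). Also among the 10 largest rises were *Fgf5* and the interferon-inducible *Tgtp1*, *Gbp2* and *Gbp2b*, which are described with their groups below.

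The steepest fall belonged to *Mras*, which encodes a small GTPase of the RAS family. It was at 12.4 and 18.3 TPM at 24 h and at 1.56 and 0.563 TPM at 48 h (log2 change -3.92, SE 0.32, adjusted p = 9.84e-07), and the change was -4.35 without replicate 1. *Msc*, a basic helix-loop-helix factor, went from 11 and 18.7 TPM to 1.29 and 2.65 TPM (-2.99 ± 0.53 SE). *Ntn1*, the secreted guidance cue netrin-1, went from 20.9 and 20.2 TPM to 2.61 and 3.88 TPM (-2.56 ± 0.13 SE). The call of *Msc* was lost when either 48 h library was left out.

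Further falls in the set were those of *Itpka*, *Islr2*, *Aard*, *St8sia1* and *Emp1*, with log2 changes between -2.51 and -2.32. *Aard* was the most abundant of them, at 85.0 and 86.4 TPM at 24 h and 16.3 and 15.5 TPM at 48 h. *Itpka*, an inositol trisphosphate kinase, had 9.78 and 13.04 TPM in KO ESCs, 9.19 and 10.49 TPM at 24 h and 1.13 and 2.16 TPM at 48 h. *Socs3* and *Klf4* completed the 10 largest falls. None of the 10 overlapped between the times, which their selection from these same libraries makes likely. All 10 also fell in WT spheroids (adjusted p between 1.30e-11 and 0.0254), where 846 of 17424 genes were called lower. Among the rises *Sema6a*, *Spon1*, *Fgf5* and *Gbp2b* were also called in WT. *Tgtp1*, *Gbp2*, *Mal2*, *Zfp36l3* and *Gm20721* were not (adjusted p between 0.0739 and 0.88). Of these *Tgtp1* passed the test of the difference between the genotypes. *Gbp2*, *Mal2*, *Zfp36l3* and *Gm20721* did not (adjusted p between 0.89 and 0.98), and their WT changes were 2.69, 2.35, 1.92 and 0.35. Missing the threshold in WT thus does not show that a rise was particular to the KO.

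The network of naive pluripotency factors fell as a group. Of 16 listed genes, 13 fell and none rose, against 5.37% of all genes that fell, and the median log2 change was -1.22. Without replicate 1, 14 fell, with a median of -1.36. *Klf4* was at 67.7 and 74.8 TPM at 24 h and at 8.76 and 11.4 TPM at 48 h, a 6.86-fold fall (log2 change -2.78, SE 0.10, adjusted p = 6.93e-13). *Tbx3*, a T-box repressor that sustains self-renewal, had 60.2 TPM in each library at 24 h and 10.2 and 12 TPM at 48 h (-2.12 ± 0.15 SE). *Tfcp2l1*, a direct STAT3 target, went from 12 and 16.7 TPM to 4.91 and 5.10 TPM (-1.58 ± 0.13 SE, and -1.785 without replicate 1).

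The remaining naive factors moved less. *Zfp42* (Rex1), the classic naive marker, fell from 534 and 555 TPM to 173 and 203 TPM (-1.45 ± 0.07 SE). *Esrrb*, an orphan nuclear receptor, fell from 164 and 180 TPM to 59.9 and 66.6 TPM (-1.39 ± 0.07 SE). *Nanog* fell by the same amount to 2 decimals, from 169 and 202 TPM to 62.0 and 71.8 TPM. *Klf5*, *Stat3* and *Fgf4* fell by 0.61, 0.61 and 0.60 on the log2 scale. *Klf2* (-0.29, adjusted p = 0.28), *Sox15* (-0.92, adjusted p = 0.062) and *Dppa3* (0.28, adjusted p = 0.86) did not pass, and *Sox15* passed without replicate 1 at -1.13.

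Genes of LIF and STAT3 signalling moved in the same direction, 9 of 12 falling and none rising (median -0.64), against 5.37% of all genes that fell, or 10 of 12 without replicate 1. With average transcript lengths as offsets, or on log2(TPM + 1), 3 of the 12 passed. *Socs3*, the feedback inhibitor that STAT3 induces, was at 95.4 and 130 TPM in KO ESCs with LIF, at 7.34 and 7.25 TPM at 24 h and at 0.778 and 1.27 TPM at 48 h. Most of that decline thus came before 24 h, and the further fall to 48 h was 6.87-fold (log2 change -2.78, SE 0.21, adjusted p = 1.08e-07). The receptor subunits *Lifr* and *Il6st* fell by 0.94 and 0.57 on the log2 scale, *Stat3* itself by 0.61, and the STAT3-responsive genes *Bcl3* and *Junb* by 1.24 and 0.67. *Jak1*, the receptor-associated kinase, did not pass with all libraries (-0.13, adjusted p = 0.72) and fell without replicate 1 (-0.46).

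The promoter of *Socs3* is shown because the palindrome TTCNNNGAA, the core that activated STAT dimers bind, was found in it and in no other promoter of the 9 genes that fell. The RefSeq promoter spans chr11:117969317-117969616 on the minus strand of GRCm38.p6, from 250 bases before the gene's start to 50 after it, and capitals mark the match, which begins 154 bases upstream of the start.
Socs3: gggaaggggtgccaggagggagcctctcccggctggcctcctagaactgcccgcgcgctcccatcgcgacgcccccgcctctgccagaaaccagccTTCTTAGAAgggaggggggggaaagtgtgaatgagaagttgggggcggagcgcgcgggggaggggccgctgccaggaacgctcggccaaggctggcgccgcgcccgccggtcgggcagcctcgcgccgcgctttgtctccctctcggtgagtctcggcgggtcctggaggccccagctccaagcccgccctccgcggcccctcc
Matches were sought on both strands, and 8.298% of 32851 RefSeq promoters of this length held at least 1. Among the 10 promoters of the 9 LIF and STAT3 genes that fell, 1 held it. A match is a run of letters in this window and says nothing of whether a factor was bound.

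The general pluripotency factors stayed closer to their 24 h levels. Of all genes 5.37% fell and 4.56% rose with all libraries. *Sall4*, *Pou5f1* and *L1td1* fell by 0.48, 0.38 and 0.33 on the log2 scale, *Tdgf1* (Cripto, the NODAL co-receptor) rose by 0.26, and the other 6 of 10 did not pass. The rise of *Tdgf1* held without replicate 1 (0.31) and was lost on log2(TPM + 1). *Sox2* was at 298 and 328 TPM at 24 h and at 263 and 245 TPM at 48 h (-0.22, adjusted p = 0.10). *Lin28a*, an RNA-binding regulator of let-7, stood at 212 and 231 TPM and at 207 and 218 TPM (0.05, adjusted p = 0.70).

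Formative and primed genes rose: 14 of the 20 tested rose and 2 fell, against 4.56% and 5.37% of all genes, with a median log2 change of 0.92. Without replicate 1 the counts were 13 and 1, and the median was 0.82. *Fgf5*, the growth factor that marks the post-implantation epiblast, had 3.82 and 1.53 TPM at 24 h and 37.8 and 29.4 TPM at 48 h, a 17.4-fold rise (log2 change 4.12, SE 0.38, adjusted p = 3.06e-05). *Pou3f1* (Oct6), a POU factor of the formative epiblast, went from 5.65 and 6.56 TPM to 42.7 and 38.9 TPM (2.83 ± 0.15 SE). In KO ESCs *Fgf5* had 0.128 and 0.454 TPM, and *Pou3f1* 1.95 and 1.54 TPM.

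*Pim2*, a serine/threonine kinase, rose from 83.5 and 89.4 TPM to 394 and 342 TPM (2.14 ± 0.10 SE). *Lef1*, the Wnt-responsive HMG-box factor, had 8.78 and 6.26 TPM at 24 h and 28.9 and 27.8 TPM at 48 h (2.17 ± 0.20 SE), after 0.384 and 0.507 TPM in KO ESCs. *Otx2*, which drives entry into the formative state, was already at 103 and 122 TPM at 24 h and reached 171 and 155 TPM (0.55 ± 0.09 SE). The 2 genes of this list that fell were *Tcf15* (-0.56, adjusted p = 0.0099) and *Etv4* (-0.50, adjusted p = 0.043), and the fall of *Etv4* was lost without replicate 1. *Zic5*, *Sox4* and *Foxd3* did not pass.

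Genes of DNA methylation moved in both directions, where 4.56% of all genes rose and 5.37% fell with all libraries. The de novo methyltransferases *Dnmt3b* and *Dnmt3a* rose, the first from 180 and 182 TPM to 442 and 436 TPM (1.38 ± 0.07 SE, adjusted p = 6.13e-11) and the second from 157 and 164 TPM to 254 and 274 TPM (0.61 ± 0.07 SE). *Tet2* and *Tet1*, dioxygenases that oxidise methylcytosine, fell, the first from 36.8 and 55.4 TPM to 14.8 and 16.5 TPM (-1.27 ± 0.17 SE) and the second from 62.9 and 69.4 TPM to 27.7 and 35.1 TPM (-1.07 ± 0.17 SE). Without replicate 1 the changes of *Tet2* and *Tet1* were -1.55 and -1.34. *Dnmt3l*, a catalytically inactive cofactor, fell by 0.46 on the log2 scale, and the maintenance factors *Dnmt1* and *Uhrf1* fell by 0.29 and 0.28. *Tet3* (-0.07, adjusted p = 0.90) and *Tdg* (0.32, adjusted p = 0.075) did not pass. The 7 calls among 9 genes were the same in number without replicate 1, 2 higher and 5 lower.

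**Figure D2:**
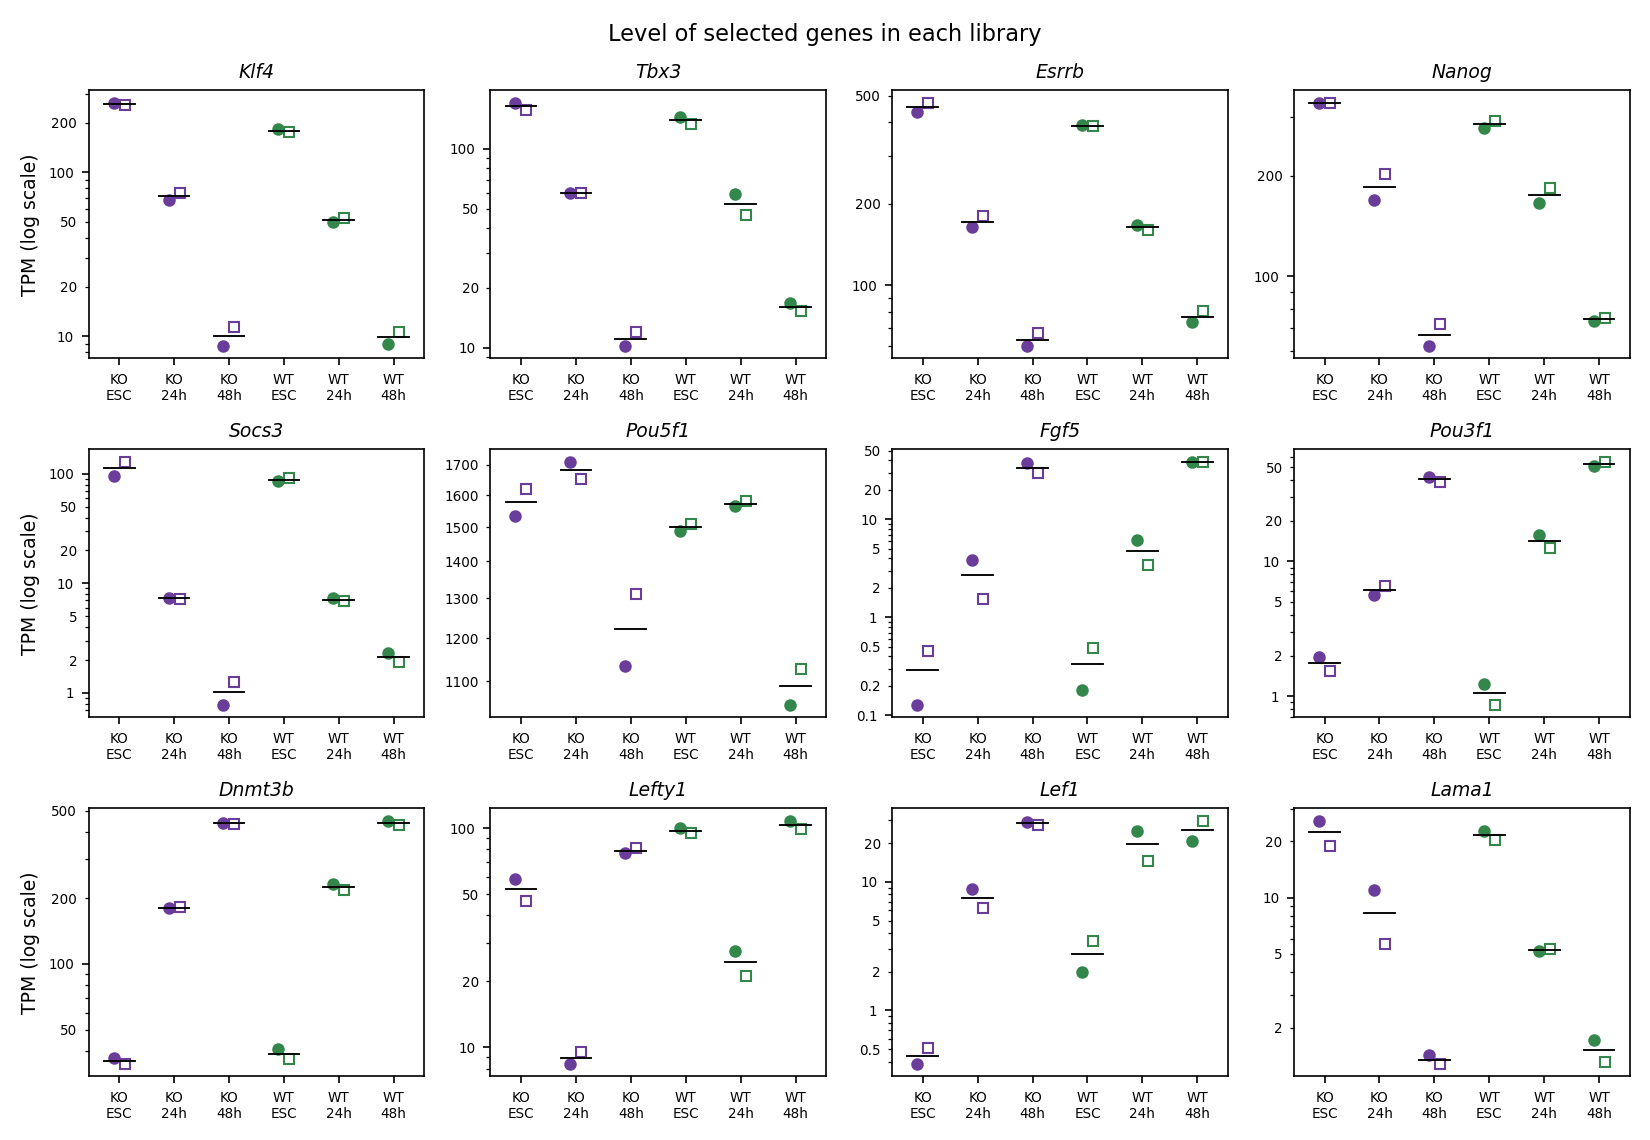
TPM on a log axis of 12 genes in the 6 groups of the series (circles, replicate 1; open squares, replicate 2; short lines, mean of the 2 libraries). The naive genes *Klf4*, *Tbx3*, *Esrrb* and *Nanog* fall from 24 h to 48 h in both genotypes, *Fgf5*, *Pou3f1*, *Dnmt3b*, *Lefty1* and *Lef1* rise, and *Lama1* falls from 11 and 5.62 TPM to 1.42 and 1.28 TPM in the KO.

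Signalling genes moved in both directions within a pathway. With all libraries 4.56% of all genes rose and 5.37% fell. Of 18 Nodal and BMP genes, 6 rose and 6 fell with all libraries, and 5 rose and 6 fell without replicate 1. The rising group held the Nodal antagonists. *Lefty1* was at 8.40 and 9.52 TPM at 24 h and at 76.7 and 81.2 TPM at 48 h, an 8.61-fold rise (log2 change 3.11, SE 0.13, adjusted p = 9.89e-12). *Lefty2* went from 38.8 and 13.4 TPM to 69.2 and 59.5 TPM (2.06 ± 0.17 SE), a call lost with length offsets. *Fst* (follistatin), an activin trap, rose from 3.65 and 3.47 TPM to 8.64 and 11.2 TPM (1.32 ± 0.32 SE). The ligand *Nodal* itself was at 30.8 and 35.5 TPM and at 20.0 and 29.6 TPM and did not pass (-0.34, adjusted p = 0.15).

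On the BMP side *Bmp4* and the *Id* genes were called lower, while *Bmp7* and *Nog* did not pass (adjusted p = 0.62 and 0.90). *Id1*, *Id2* and *Id3*, the inhibitor-of-DNA-binding genes that BMP induces through SMADs, fell by 0.81, 0.51 and 0.50 on the log2 scale. For *Id1* the levels were 519 and 638 TPM at 24 h and 265 and 360 TPM at 48 h. *Bmp4* fell on counts (-1.0 ± 0.14 SE), yet its levels of 20.8 and 37.6 TPM at 24 h and 27.5 and 20.5 TPM at 48 h overlapped, and the call was lost with length offsets. *Gdf3* and the proprotein convertase *Pcsk6* also fell, while the feedback inhibitors *Skil* and *Smad7* rose by 0.67 and 0.49, *Smad7* not passing without replicate 1.

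Among 18 genes of FGF and ERK signalling, 5 rose and 3 fell, or 5 and 2 without replicate 1. The shares over all genes were 4.56% rising and 5.37% falling with all libraries. The ligand *Fgf4*, made by naive cells, fell from 146 and 172 TPM to 94.5 and 107 TPM (-0.60 ± 0.09 SE). *Fgf5* and *Fgf15* rose, *Fgf15* from 26.3 and 28.5 TPM to 42.4 and 51.7 TPM (0.87 ± 0.16 SE). The receptors *Fgfr1* to *Fgfr4* did not pass. Among the inhibitors of the pathway *Dusp4* rose by 1.22 and *Spry1* by 1.05, and *Spry4* fell by 0.43 on the log2 scale. *Egr1*, an immediate-early target of ERK, had 1 and 20 counts at 24 h and 204 and 104 counts at 48 h, and its rise of 3.87 (adjusted p = 0.024) did not pass without replicate 1 (2.94, adjusted p = 0.0893).

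Of 20 Wnt genes 3 rose and 3 fell in both fits. Among all genes 4.56% rose and 5.37% fell with all libraries. *Lef1*, *Tcf7* (0.63 ± 0.09 SE) and the receptor *Fzd7* (0.62 ± 0.10 SE) rose. The secreted inhibitors *Sfrp1* and *Notum* fell, *Sfrp1* from 36.1 and 37.7 TPM to 10.9 and 13.4 TPM (-1.52 ± 0.09 SE, adjusted p = 1.82e-09) and *Notum* from 43.3 and 44.7 TPM to 19.5 and 20.6 TPM (-1.01 ± 0.16 SE). *Axin2*, a feedback target of the pathway, did not pass (-0.28, adjusted p = 0.26). *Wnt8a* was at 0 and 0.696 TPM at 24 h and at 6.71 and 6.36 TPM at 48 h and did not pass either (adjusted p = 0.11).

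Of 22 genes of epithelial junctions 6 rose and 2 fell, against 4.56% and 5.37% of all genes, or 7 and 3 without replicate 1, with a median log2 change of 0.33. *Cdh1* (E-cadherin) rose from 205 and 226 TPM to 304 TPM in each 48 h library (0.56 ± 0.06 SE, adjusted p = 1.58e-06). *Esrp1*, a regulator of epithelial splicing, rose from 18.7 and 21.4 TPM to 39.2 and 36.7 TPM (0.98 ± 0.11 SE), and the claudin *Cldn6* from 47.8 and 43.6 TPM to 72.8 and 91.9 TPM (0.92 ± 0.12 SE). *Cldn7* had 30.1 TPM in replicate 1 but 9.37 TPM in replicate 2 at 24 h, against 34.9 and 37.9 TPM at 48 h (1.16 ± 0.29 SE). The desmosome and adherens proteins *Jup* (plakoglobin) and *Ctnna1* fell by 0.49 and 0.25.

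Of 29 genes for apical polarity and the lumen, 7 rose and none fell with all libraries, and 6 rose and 2 fell (*Prkci* and *Rab11fip5*) without replicate 1. The shares over all genes with all libraries were 4.56% rising and 5.37% falling. *Podxl* (podocalyxin), the charged sialomucin of apical membranes, rose from 21.2 and 24.6 TPM to 37.1 and 35.4 TPM. Its change was 0.71 (SE 0.09, adjusted p = 4.27e-05) and 0.62 without replicate 1, with no call on log2(TPM + 1). *Cgn* (cingulin), of the tight junction plaque, rose from 9.98 and 8.58 TPM to 16.5 and 19.8 TPM (1.08 ± 0.13 SE). *Prom1* was called higher on counts (1.5 ± 0.19 SE), but its levels of 16.1 and 5.91 TPM at 24 h and 14.2 and 12.4 TPM at 48 h overlapped. *Pard3*, the scaffold of the apical PAR complex, was at 44.6 and 41.4 TPM and at 47.2 and 46.1 TPM (0.06, adjusted p = 0.71), and with *Prkci*, *Prkcz*, *Cdc42* and *Ezr* it did not pass with all libraries.

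Of 25 genes for the basement membrane and its receptors 11 fell and 1 rose and 13 did not pass, against 5.37% and 4.56% of all genes, with 12 and 1 without replicate 1. With average transcript lengths as offsets 10 of the 25 passed, and on log2(TPM + 1) 8 did. *Lama1*, the laminin alpha chain of the early embryo, fell by 1.86 on the log2 scale (SE 0.15, adjusted p = 6.30e-08). Its effective transcript length was 9291 bases. Among the 166 genes of over 8 kb, 17.5% were called lower with all libraries, so 5.37% is a low background for long members. *Nid1* (nidogen) fell from 24.1 and 30.0 TPM to 10.2 and 11.1 TPM (-1.38 ± 0.12 SE), *Col4a1* from 42.0 and 17.9 TPM to 11.1 and 11.6 TPM (-1.04 ± 0.12 SE), and *Sparc* from 136 and 139 TPM to 73.6 and 82.8 TPM (-0.76 ± 0.09 SE). The fibronectin receptor subunit *Itga5* fell by 0.97, whereas the shared beta subunit *Itgb1* stayed at 132 and 136 TPM and 134 and 121 TPM (0.01, adjusted p = 0.98). *Lamb1* was the gene that rose, from 23.1 and 25.1 TPM to 39.8 and 39.2 TPM (0.76 ± 0.09 SE).

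Lipid droplet and lipolysis genes are the setting in which CIDEA acts. Of 29 tested, 4 rose and 1 fell, against 4.56% and 5.37% of all genes, with a median log2 change of -0.09. Without replicate 1 the counts were 2 and 1 of 30, against 3.17% and 4.98%. *Dgat2*, which makes triglyceride, rose from 0.721 and 1.32 TPM to 2.45 and 5.47 TPM (2.04 ± 0.50 SE, adjusted p = 0.0117). The acyl-CoA synthetases *Acsl4* and *Acsl3* rose by 0.80 and 0.46, and *Soat1*, which makes cholesteryl ester, by 0.62. *Pnpla3*, a droplet-bound lipase, fell from 36.7 and 18.3 TPM to 5.47 and 5.82 TPM (-1.40 ± 0.37 SE). The rises of *Acsl3* and *Soat1* were lost without replicate 1.

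The perilipin genes *Plin1* to *Plin5* encode the coat proteins of the droplet, and no change in them passed the test. *Plin2*, the ubiquitous coat, was at 18.9 and 6.57 TPM at 24 h and 6.99 and 7.92 TPM at 48 h (0.16, adjusted p = 0.75), *Plin3* at 53.8 and 38.3 TPM and 29.3 and 35.2 TPM (-0.09, adjusted p = 0.68), and *Plin5* at 1.87 and 2.70 TPM and 1.88 and 2.12 TPM. For *Plin2* the sign of the change depended on the scale, since it was -0.68 with length offsets. *Plin1* and *Plin4* stayed under 0.5 TPM in all 4 libraries. The other members of the CIDE family were close to the floor: *Cideb* had 8 counts in replicate 2 at 24 h and 0 in the other 3 libraries, and *Cidec* had 3 counts in replicate 2 at 24 h and 2 in replicate 2 at 48 h. *Pnpla2* (ATGL), the main triglyceride lipase, was at 22.3 and 21.4 TPM and 24.1 and 29.7 TPM (0.33, adjusted p = 0.19).

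Of 34 genes of autophagy and the lysosome, 4 rose and 5 fell, against 4.56% and 5.37% of all genes, or 3 and 5 without replicate 1. The transcription factors that drive lysosomal genes moved apart: *Tfeb* fell from 7.03 and 10.1 TPM to 2.99 and 4.76 TPM (-1.07 ± 0.18 SE) and *Mitf* from 5.25 and 8.69 TPM to 1.64 and 2.88 TPM (-1.39 ± 0.22 SE), while *Tfe3* rose from 41.7 and 65.9 TPM to 86.0 and 81.7 TPM (0.50 ± 0.10 SE). *Ulk1*, the kinase that starts autophagy, fell by 0.99, and *Gabarapl2*, an ATG8 protein, by 0.97. The lysosomal enzymes *Hexa* and *Ctsl* rose by 0.88 and 0.50. *Lipa*, the acid lipase that hydrolyses lipids in lysosomes, was at 7.5 and 4.47 TPM and 4.27 and 4.43 TPM and did not pass (-0.39, adjusted p = 0.45, and 0.07 without replicate 1).

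Of 31 genes of sterol and fatty acid synthesis 12 rose, 1 fell and 18 did not pass, against 4.56% and 5.37% of all genes that rose and fell, with a median log2 change of 0.32. Without replicate 1 the counts were 10 and 1. *Hmgcs1*, at the entry to the mevalonate pathway, went from 79.5 and 97.6 TPM to 145 and 127 TPM (0.68 ± 0.11 SE). *Lss*, *Insig1*, *Cyp51* and *Sqle* rose by 0.57, 0.57, 0.56 and 0.50, and the fatty acid synthase *Fasn* by 0.36. *Elovl6* was the gene that fell (-0.49 ± 0.08 SE). These were small changes: 5 of the 31 genes passed with length offsets and 1 on log2(TPM + 1).

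Of 19 genes of fatty acid oxidation 5 fell and 2 rose, against 5.37% and 4.56% of all genes, or 5 and 1 without replicate 1, with a median log2 change of -0.10. With length offsets 1 of the 19 passed, and on log2(TPM + 1) 3 did. *Acaa2*, *Etfb*, *Cpt1a*, *Hadh* and *Acadm* fell by 0.59, 0.57, 0.55, 0.36 and 0.31. *Cpt1a*, the liver-type gatekeeper of mitochondrial fatty acid entry, was at 14.2 and 18.3 TPM and then 10.6 and 10.4 TPM. Its muscle-type counterpart *Cpt1b* rose from 2.79 and 3.42 TPM to 6.69 and 6.66 TPM (1.17 ± 0.23 SE), and so did *Acadl* (0.84 ± 0.22 SE), the latter not without replicate 1.

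Of 30 genes of glycolysis and the hypoxia response 11 rose, 3 fell and 16 did not pass, against 4.56% and 5.37% of all genes that rose and fell, and 14 and 2 were called without replicate 1. *Tpi1* rose from 191 and 208 TPM to 397 and 371 TPM (1.0 ± 0.09 SE, adjusted p = 1.97e-07), *Aldoa* from 941 and 962 TPM to 1446 and 1437 TPM (0.65 ± 0.07 SE), and *Pgk1* from 335 and 358 TPM to 547 and 503 TPM (0.68 ± 0.07 SE). *Pfkl*, *Ldha*, *Pkm*, *Eno1* and *Gapdh* rose by 0.71, 0.54, 0.51, 0.46 and 0.30. *Egln3*, an oxygen sensor that hypoxia induces, rose from 1.11 and 1.44 TPM to 6.72 and 3.74 TPM (2.13 ± 0.32 SE), and *Bnip3* by 1.05. The transporter *Slc2a3* and the hexokinase *Hk1* fell by 0.94 and 0.75, and *Pdk1*, which holds pyruvate back from the mitochondrion, just missed the threshold (0.27, adjusted p = 0.0502). For the difference from the WT change none of the 30 passed in edgeR, while 12 had an unadjusted p under 0.05 and DESeq2 called 3; without replicate 1 *Aldoa* passed (0.52, adjusted p = 0.0184).

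All 13 protein-coding genes of the mitochondrial genome had positive changes, with a median of 0.72, yet 2 passed, *mt-Co3* (0.34 ± 0.07 SE) and *mt-Atp6* (1.02 ± 0.22 SE), and 1 without replicate 1. Of all genes 4.56% were called higher with all libraries. DESeq2, another count model, called 10 of the 13 mitochondrial genes. Their share of all counts was 2.39% and 2.54% at 24 h and 4.24% and 3.46% at 48 h. *Cox7a1*, a nuclear-encoded subunit of cytochrome c oxidase, had 10.7 and 27.6 TPM at 24 h and 20.1 and 21.8 TPM at 48 h, and its change went from 0.25 to -0.27 when replicate 1 was left out (adjusted p = 0.82 and 0.87).

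Other growth pathways gave mixed calls, where 4.56% of all genes rose and 5.37% fell with all libraries. *Asns*, the asparagine synthetase and a target of the amino acid response, fell 2.69-fold, from 167 and 206 TPM to 62.1 and 72.5 TPM (log2 change -1.43, SE 0.08, adjusted p = 1.08e-09), and *Trib3* by 0.94. *Tdh*, the threonine dehydrogenase of mouse ESCs, fell from 284 and 286 TPM to 173 and 179 TPM (-0.64 ± 0.06 SE), while *Gldc*, of the glycine cleavage system, rose from 88.2 and 101 TPM to 131 TPM in each library (0.55 ± 0.08 SE). Of the 22 genes of amino acid and one-carbon metabolism 2 rose and 5 fell, and 2 and 2 without replicate 1, where *Trib3*, *Sesn2* and *Slc7a5* lost their calls.

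Among 20 p53 targets 4 rose and 3 fell, against 4.56% and 5.37% of all genes, or 4 and 2 without replicate 1. *Pmaip1* (Noxa) rose the most among those called, from 13.1 and 14.4 TPM to 32.2 and 25.6 TPM (1.16 ± 0.14 SE), followed by *Plk2* and *Ccng1* (0.53 each) and *Mdm2* (0.34), which did not pass without replicate 1. *Cdkn1a* (p21) did not pass with all libraries (0.42, adjusted p = 0.058). Of 30 cell cycle and Myc genes 3 rose and 4 fell, against 4.56% and 5.37% of all genes. *E2f2* fell from 14 and 12.2 TPM to 6.30 and 4.26 TPM (-0.97 ± 0.17 SE), the cyclins *Ccnd3* and *Ccnd1* fell by 0.65 and 0.37, and *Mycn* rose by 0.54. *Myc* itself was at 45.1 and 41.4 TPM and 53.2 and 45.4 TPM (0.23, adjusted p = 0.21).

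Of 22 imprinted genes tested 5 rose and 3 fell, or 3 and 3 without replicate 1. Among all genes 4.56% rose and 5.37% fell with all libraries. *Magel2* rose from 2.03 and 0.841 TPM to 4.91 and 4.19 TPM (1.74 ± 0.36 SE). *Impact*, *Igf2r*, *Snrpn* and *Peg3* rose by 0.52, 0.52, 0.40 and 0.37. *Phlda2*, *Mest* and *Cdkn1c* fell by 0.46, 0.44 and 0.39. For *Cdkn1c*, *Igf2r* and *Peg3* the calls were lost without replicate 1.

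Many markers of other cell types were low in all 4 libraries, with exceptions that included *Apoe*, *Vim* and the germ cell list. The counts of these lists stand against 4.56% of all genes that rose and 5.37% that fell with all libraries. In RNA from whole spheroids, fewer cells of a type and less RNA per cell cannot be told apart. Of 11 mesendoderm markers tested none passed in edgeR, 3 had an unadjusted p under 0.05 and DESeq2 called 0; *T* (brachyury) was at 1.43 and 0.681 TPM at 24 h and 2.19 and 2.97 TPM at 48 h, and *Foxa2*, *Mixl1* and *Gsc* stayed under 1 TPM. *Eomes* passed without replicate 1 (0.93). The summed level of the 13 listed mesendoderm markers was 15.2 and 8.94 TPM at 24 h and 17.8 and 22.0 TPM at 48 h. *Sox1*, a neural marker, fell from 3.52 and 2.77 TPM to 1.20 and 1.21 TPM (-1.30 ± 0.26 SE) as 1 of 7 neural markers tested, whose summed level stayed between 15.0 and 18.9 TPM.

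For primitive endoderm 1 of 10 markers rose, *Apoe* (0.36 ± 0.09 SE), which lost its call without replicate 1, and the defining factors *Gata4* and *Gata6* were at most 2.24 and 0.376 TPM. *Apoe* made up most of the summed level of that list, 199 and 236 TPM at 24 h and 264 and 276 TPM at 48 h, and is not specific to that lineage. Trophoblast markers gave 2 rises and 1 fall among 10, against 4.56% and 5.37% of all genes. *Krt18*, a keratin of simple epithelia, had 2.43 and 7.68 TPM at 24 h and 20.6 and 23.2 TPM at 48 h (2.21 ± 0.38 SE), and its partner *Krt8* rose by 0.76. *Tfap2c* fell from 10.3 and 10.8 TPM to 4.93 and 4.36 TPM (-1.39 ± 0.19 SE), and *Cdx2*, the defining factor of the lineage, was at most 1.04 TPM.

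*Vim* (vimentin) fell from 134 and 109 TPM to 41.5 and 50.8 TPM (-0.93 ± 0.08 SE) and was the 1 call among 6 fibroblast markers tested, *Col1a1* and *Col1a2* staying under 2 TPM. The germ cell markers *Sycp3* and *Ddx4* rose by 1.06 and 0.81 among 8, and *Ddx4* did not pass without replicate 1. The summed level of the 8 germ cell markers was 100 and 122 TPM at 24 h and 141 and 152 TPM at 48 h. None of 9 genes of the two-cell-like state passed in edgeR, with 2 at an unadjusted p under 0.05 and 0 called by DESeq2, and the summed level of that list lay between 1.01 and 1.31 TPM in the 4 libraries.

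**Figure D3:**
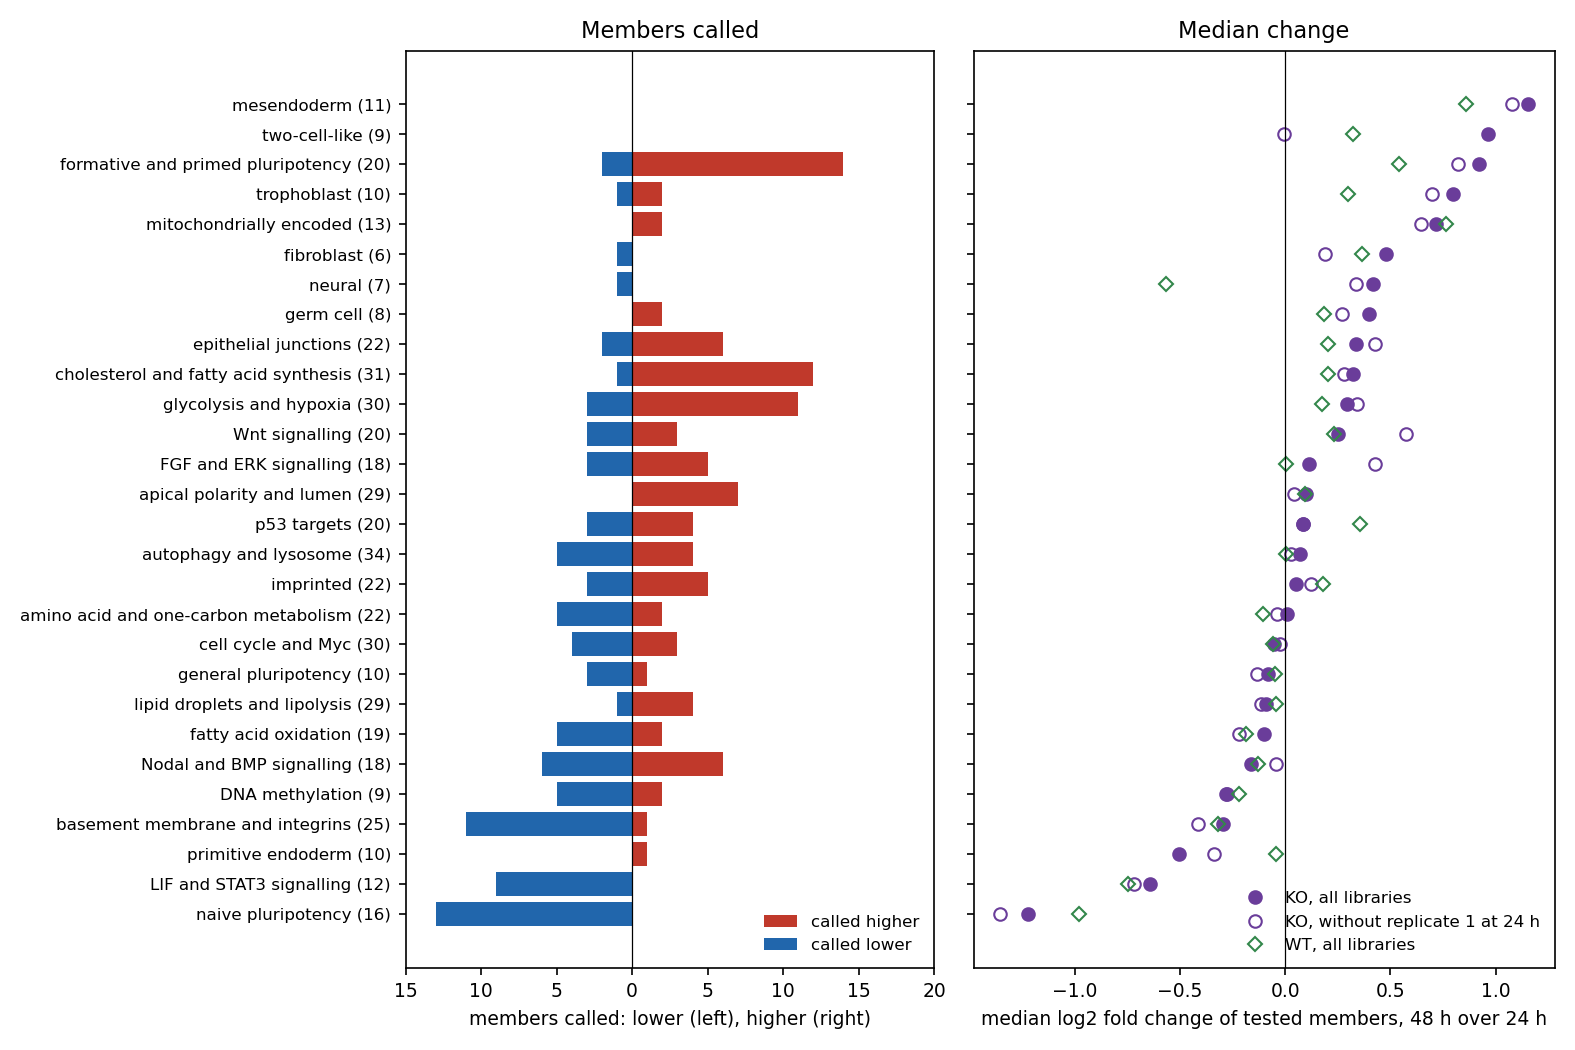
For the 28 gene lists, left, members called lower (bars to the left) and higher (bars to the right) from 24 h to 48 h in the KO; right, the median log2 change over the tested members in the KO with all libraries, in the KO without replicate 1 at 24 h and in WT. The naive list has the lowest median (-1.22 in the KO and -0.98 in WT), and the mesendoderm list the highest (1.16 in the KO) with no member called.

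Interferon-inducible genes formed a group among the rises. *Tgtp1*, *Gbp2* and *Gbp2b* were among the 10 largest, and a list of 65 genes of interferon signalling and response was then put together after these values were seen, so its counts describe the pattern and are no evidence for it. Of 61 tested 21 rose and 3 fell, or 27 and 4 of 62 without replicate 1. Over all genes tested with all libraries, 4.56% rose and 5.37% fell. Interferons signal through JAK kinases to STAT factors. These switch on IRF factors, guanylate-binding proteins, immunity-related GTPases, the immunoproteasome and the antigen-loading machinery of MHC class I.

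Sequence of the promoters is shown for genes of 3 of these classes, since they hold the letters of motifs that STAT and IRF proteins bind. The motifs searched on both strands were TTCNNNGAA, the STAT core, and 2 copies of GAAA with any 2 bases between them, the core of the interferon-stimulated response element, and capitals mark each match. The windows run from 250 bases before to 50 after the RefSeq start in GRCm38.p6: *Irf1* at chr11:53769764-53770063 (plus strand), *Gbp2* at chr3:142620413-142620712 (plus), *Tgtp1* at chr11:48992197-48992496 (minus) and *Irgm1* at chr11:48871371-48871670 (minus). *Irf1* has a second RefSeq promoter, which held no match.
Irf1: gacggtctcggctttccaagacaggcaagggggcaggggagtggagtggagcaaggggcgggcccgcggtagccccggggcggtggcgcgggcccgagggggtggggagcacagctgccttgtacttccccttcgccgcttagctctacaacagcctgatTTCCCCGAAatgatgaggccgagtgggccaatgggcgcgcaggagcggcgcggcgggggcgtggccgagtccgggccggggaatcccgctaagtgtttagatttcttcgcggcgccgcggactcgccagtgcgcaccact
Gbp2: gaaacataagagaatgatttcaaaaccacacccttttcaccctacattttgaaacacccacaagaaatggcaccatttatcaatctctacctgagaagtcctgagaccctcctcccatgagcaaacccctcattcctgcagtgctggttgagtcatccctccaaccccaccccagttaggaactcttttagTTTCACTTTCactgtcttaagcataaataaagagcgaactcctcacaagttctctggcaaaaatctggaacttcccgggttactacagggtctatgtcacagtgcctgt
Tgtp1: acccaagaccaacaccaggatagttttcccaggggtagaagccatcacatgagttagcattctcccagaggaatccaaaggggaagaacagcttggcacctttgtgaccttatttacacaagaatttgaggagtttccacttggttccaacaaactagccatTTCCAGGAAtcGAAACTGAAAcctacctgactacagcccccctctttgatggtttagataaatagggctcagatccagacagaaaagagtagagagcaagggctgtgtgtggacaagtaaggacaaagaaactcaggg
Irgm1: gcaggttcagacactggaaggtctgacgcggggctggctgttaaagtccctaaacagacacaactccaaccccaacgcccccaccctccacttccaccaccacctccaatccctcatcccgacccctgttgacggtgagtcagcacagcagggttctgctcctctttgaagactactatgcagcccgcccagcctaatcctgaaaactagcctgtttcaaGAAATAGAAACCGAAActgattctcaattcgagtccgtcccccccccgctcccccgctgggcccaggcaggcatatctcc
The match in *Irf1* was of the STAT core and began 90 bases upstream, and that in *Gbp2* was of the response element and began 59 bases upstream. *Tgtp1* held one of each, at 88 and 77 bases upstream, and *Irgm1* held 2 overlapping response elements, at 30 and 24 bases. Of the 55 promoters found for 49 of the 61 tested genes, 13 (23.64%) held the STAT core and 25 (45.45%) the response element, against 8.298% and 3.443% of all 32851 promoters. Among the 21 genes that rose, 19 had a RefSeq promoter here, 21 in all. Of these promoters 6 (28.57%) held the STAT core and 9 (42.86%) the response element. The list was made of genes of interferon signalling and response, so its excess over all promoters says nothing of this comparison. As for *Socs3*, a match does not show that a factor was bound.

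*Irf1*, a transcription factor that interferons induce early, rose from 50.3 and 32.6 TPM to 97.8 and 104 TPM (1.43 ± 0.15 SE, adjusted p = 6.37e-06, and 1.76 without replicate 1). *Stat2* did not pass (0.10, adjusted p = 0.78). The receptor subunits *Ifngr1* and *Ifnar1* did not pass either (adjusted p = 0.33 and 0.23).

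After *Tgtp1*, guanylate-binding proteins showed the largest called changes of the list. *Gbp2* had 1 and 12 counts at 24 h and 640 and 345 counts at 48 h, or 0.0624 and 0.224 TPM and then 9.91 and 7.06 TPM (6.22 ± 0.99 SE, adjusted p = 0.0037, and 5.34 without replicate 1). *Gbp2b* rose from 0.394 and 0.297 TPM to 6.53 and 5.25 TPM (4.16 ± 0.53 SE), *Gbp7* from 0.0180 and 0.0519 TPM to 1.16 and 1.08 TPM (4.92 ± 1.25 SE), and *Gbp4* from 12.8 and 5.92 TPM to 16.1 and 21.4 TPM (1.33 ± 0.22 SE). *Gbp3*, at 0 and 0.285 TPM and then 2.49 and 2.47 TPM, passed without replicate 1 only (3.23). These genes are close relatives in clusters and Kallisto divides shared reads among them, so the values of single members are uncertain.

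*Tgtp1*, an immunity-related GTPase, had 0 counts in both 24 h libraries and 247 and 109 counts at 48 h, which is at least 57.7-fold higher when 3 counts are set in each 24 h library. Its near-identical neighbour *Tgtp2* had 0 and 15 counts at 24 h and none at 48 h, so the 2 genes together went from 0 and 15 counts to 247 and 109. *Igtp* rose from 1.04 and 1.90 TPM to 8.46 and 6.27 TPM (2.45 ± 0.38 SE), and *Irgm1* from 12.1 and 5.10 TPM to 19.4 and 19.5 TPM (1.29 ± 0.29 SE).

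Calls among genes of the immunoproteasome and of the MHC class I pathway were mixed. *Psmb10*, a catalytic subunit, rose from 107 and 60.4 TPM to 133 and 156 TPM (1.30 ± 0.21 SE), and the activator subunits *Psme1* and *Psme2* by 1.01 and 1.21. *Psmb8* was listed at 0 in replicate 1 at 24 h and at 1.64 TPM in replicate 2, against 14.5 and 7.19 TPM at 48 h, and passed without replicate 1 (3.16) but not with it (adjusted p = 0.0558). *Erap1*, which trims peptides for MHC class I, rose from 1.62 and 5.62 TPM to 12.2 and 11.6 TPM (2.43 ± 0.21 SE, adjusted p = 1.66e-07), and *Tapbp* (tapasin) by 0.91. *H2-Q4*, *H2-Q6* and *H2-Q7* rose by 1.69, 2.31 and 1.71, while the classical heavy chains *H2-D1* and *H2-K1* and their partner *B2m* did not pass with all libraries.

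The group was not uniform. *Ifitm2*, which is abundant in ESCs, fell from 743 and 711 TPM to 462 and 517 TPM (-0.49 ± 0.08 SE), the RNA sensor *Ddx58* (RIG-I) from 28.9 and 22.3 TPM to 11.7 and 12.8 TPM (-0.86 ± 0.12 SE), and *H2-M5* from 72.1 and 71.3 TPM to 26.5 and 35.1 TPM (-1.16 ± 0.14 SE). Other interferon targets on the list differed from each other. *Ifi35*, *Parp9*, *Parp12*, *Dtx3l* and *Bst2* rose by 1.62, 1.52, 1.44, 0.94 and 0.57, while *Isg15* and *Ifit1* did not pass: *Isg15* reached 1.83 and 0.751 TPM at 48 h, and *Ifit1* 0.848 and 0.657 TPM. In WT spheroids 18 of the 61 genes rose and 5 fell over the same interval, where 8.14% of all genes were called in either direction. The median log2 change was 0.84 in WT against 1.01 in the KO. *Tgtp1* was the 1 gene of the list that passed the test of the difference between the genotypes.

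**Figure D4:**
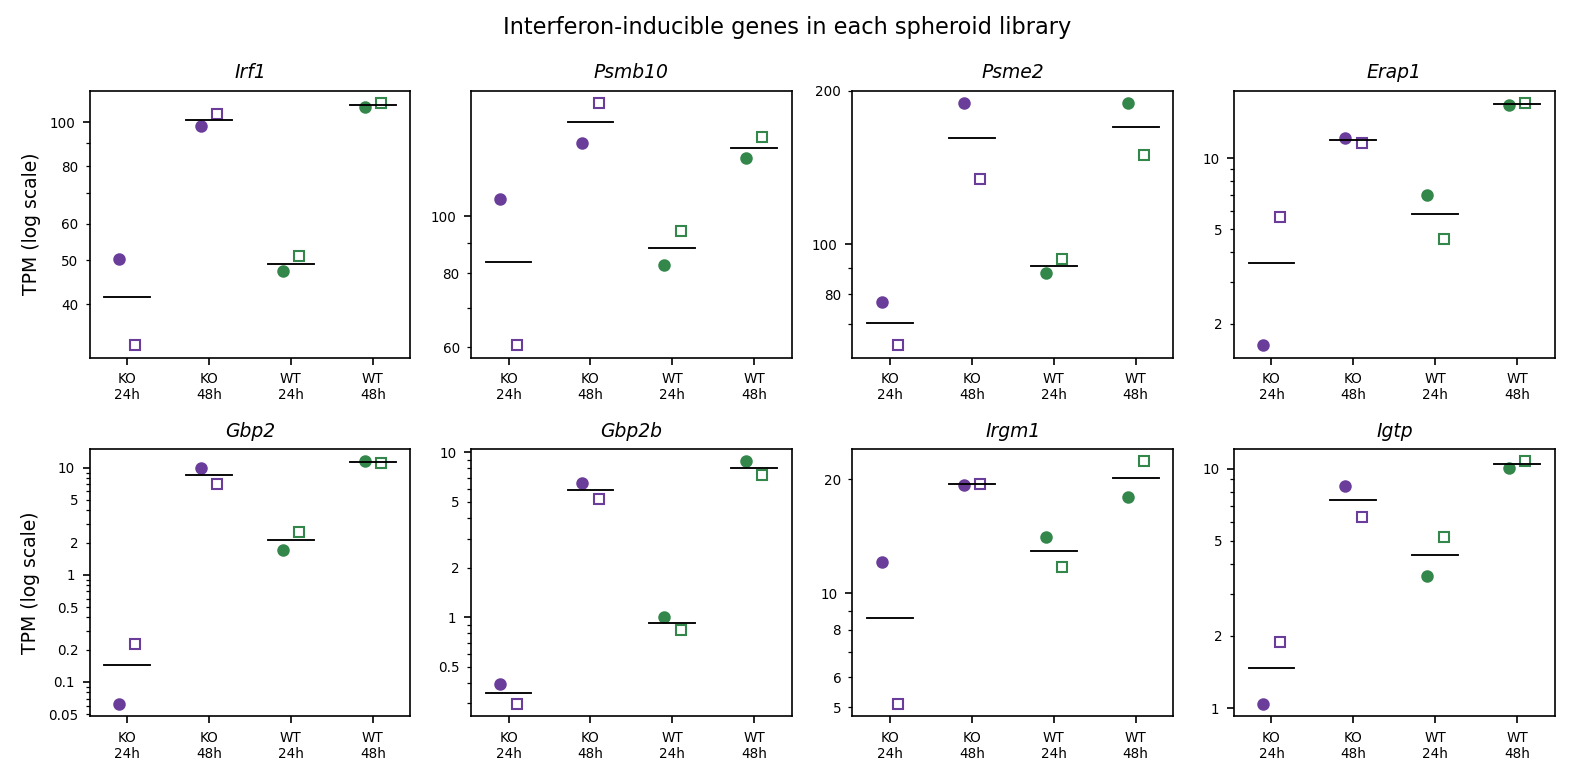
TPM on a log axis of 8 interferon-inducible genes in the KO and WT spheroids at 24 h and 48 h (circles, replicate 1; open squares, replicate 2; short lines, mean of the 2 libraries). *Gbp2* goes from 0.0624 and 0.224 TPM to 9.91 and 7.06 TPM in the KO and from 1.69 and 2.52 TPM to 11.5 and 10.9 TPM in WT.

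To ask whether the KO clone changed differently from its parental line, the change from 24 h to 48 h in the KO was set against that in WT. In WT spheroids 1418 of 17424 genes passed (8.14%), and 916 of these were also called in the KO, 915 in the same direction, which is 52.9% of the KO calls and 64.6% of the WT calls. Of the 1730 genes called in the KO, 1683 had a change of the same sign in WT. Across the 9761 genes with a mean log2 CPM of at least 3, the changes in the 2 genotypes had a Pearson r of 0.76, or 0.78 without replicate 1; the genes are not independent replicates, and r was 0.24 over all 17424 genes, which include those with few counts.

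The test of the difference itself, the KO change minus the WT change, called 4 genes (0.0230%), *Tgtp1*, *Gm7332*, *Lefty1* and *Wt1*, with 894 genes at an unadjusted p under 0.05. *Lefty1* rose by 3.11 in the KO and by 2.02 in WT, a difference of 1.08 (SE 0.17, adjusted p = 0.0252). It stood at 8.40 and 9.52 TPM in the KO and at 27.6 and 21.2 TPM in WT at 24 h, and at 76.7 and 81.2 TPM and 108 and 99.6 TPM at 48 h. As a ratio, the KO thus stood farther below WT at 24 h. *Wt1*, a zinc finger transcription factor, was similar in shape, with 1.75 and 1.51 TPM in the KO and 11.9 and 6.72 TPM in WT at 24 h and 18.6 and 18.7 TPM against 21.8 and 23.2 TPM at 48 h (difference 2.04, SE 0.34, adjusted p = 0.0356).

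For *Tgtp1* the difference was 9.31 (SE 1.28, adjusted p = 0.0116), against a KO group with 0 counts at 24 h and WT levels of 2.03 and 2.84 TPM. The size of that fitted value depends on the prior count of the model. *Tgtp1* and its near-identical neighbour *Tgtp2* together had 0 and 15 counts in the KO and 126 and 109 counts in WT at 24 h. The difference was not tested on the 2 genes together. *Gm7332*, annotated as a processed pseudogene, had 0 counts in both KO libraries at 24 h and 223 and 174 counts at 48 h, at least 66.8-fold higher. WT had 16.1 and 2.84 TPM at 24 h and 0 at 48 h (adjusted p = 0.0116 for the difference). Its WT ESC libraries also differed from each other, at 20.3 and 2.62 TPM. Whether Kallisto divided reads between *Gm7332* and similar sequences was not tested. *Aldh1l2*, a mitochondrial folate enzyme, came next by its p and did not pass with all libraries (adjusted p = 0.104), but passed without replicate 1 (-3.28, adjusted p = 0.0291).

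Without replicate 1 the same test called 30 genes (0.161%), 9 with a KO change above that in WT and 21 below, and 3 genes were called both ways. *Lefty2* (difference 0.99) and *Lef1* (1.33) passed among the former and *Mras* (-1.66) among the latter. Of the 30 genes, 18 had an effective transcript length of over 6 kb, such as *Dst*, *Rnf213* and *Huwe1*, and in all 18 the KO change was below that in WT. Among the 166 genes of over 8 kb, 17.5% were called lower in the KO with all libraries, 45.2% without replicate 1 and 8.43% in WT. With average transcript lengths as offsets, no gene passed for the difference in edgeR, with or without replicate 1, while 863 and 740 genes had an unadjusted p under 0.05.

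With all libraries none of the 16 naive genes passed for the difference in edgeR (smallest adjusted p = 0.88, with 5 at an unadjusted p under 0.05 and 1 called by DESeq2). None of the 20 formative and primed genes did either (smallest adjusted p = 0.54, with 8 at an unadjusted p under 0.05 and 3 called by DESeq2). Without replicate 1 *Lef1* passed among the formative genes and no naive gene did. The KO medians were -1.22 and 0.92 for these lists and those in WT -0.98 and 0.54. A p that misses the threshold does not show that the genotypes changed alike: for *Klf4* the difference was -0.43 (SE 0.13) and for *Dnmt3b* 0.34 (SE 0.09).

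**Figure D5:**
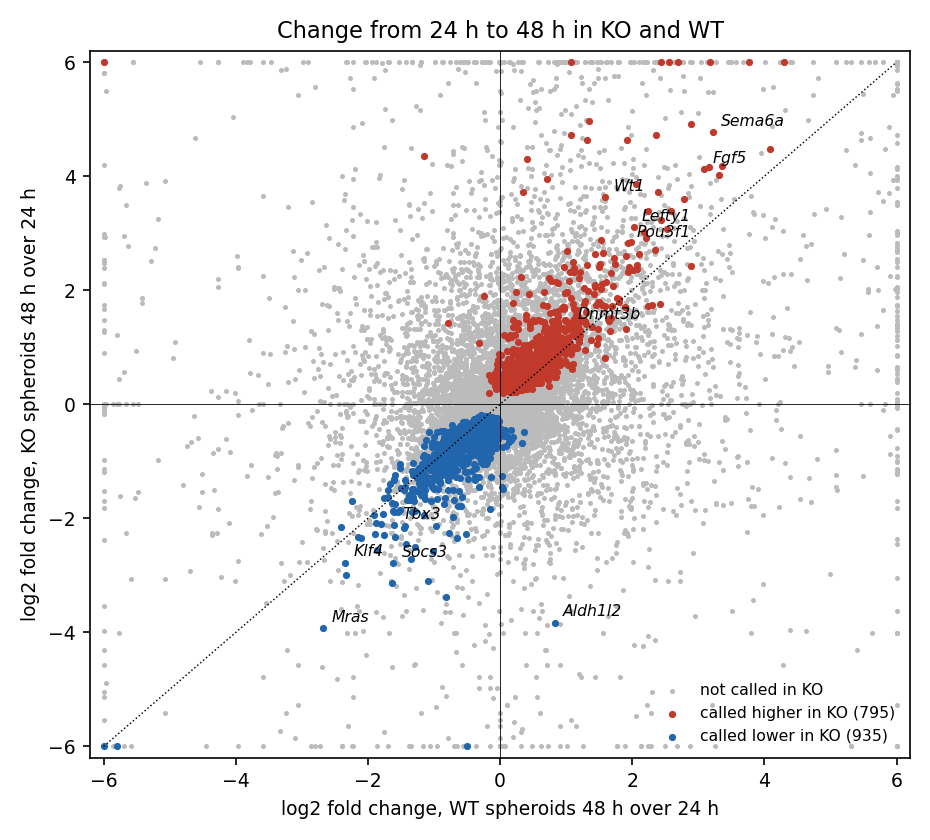
Log2 change from 24 h to 48 h in WT (horizontal axis) and in the KO (vertical axis) for the 17424 tested genes, with values beyond 6 drawn at the edge; red, the 795 genes called higher in the KO; blue, the 935 called lower; dotted line, equal change. Of the 1730 called genes, 1683 lie on the same side of 0 in both genotypes.

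Some calls were made only with replicate 1 at 24 h included. Of the 795 rises, 303 passed with all libraries only, and 6 of these were at 0 in replicate 1. Of the 841 genes that were missing from that library alone, 839 were tested and 4 were called higher with it and 11 without it. The named examples of calls made only with that library included were *Gm7332*, *Duxbl3*, *Egr1*, *Cthrc1* and *Dsc2*. These were the 5 largest changes among 523 such genes with at least 2 CPM on average. Having fewer libraries can also cost a call, and which of these applied was not tested. For *Gm7332* the change was 10.59 with all libraries and 10.58 without replicate 1.

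*Duxbl3*, a double homeobox gene, had 0 and 3 counts at 24 h and 102 and 489 counts at 48 h (7.68, adjusted p = 0.0142, and 6.73 without replicate 1, adjusted p = 0.224). Its copies *Duxbl1* and *Duxbl2* share its sequence, and the 3 genes together had 24 and 72 counts at 24 h and 692 and 565 counts at 48 h. *Cthrc1*, a secreted collagen-domain protein, had 0.630 and 1.06 TPM and then 5.74 and 4.45 TPM (2.91, adjusted p = 0.0454, and 2.49 without replicate 1, adjusted p = 0.111). The desmosomal cadherin *Dsc2* had 0.0579 and 0.479 TPM and then 1.32 and 1.99 TPM (2.70, adjusted p = 0.041, and 1.83 without replicate 1, adjusted p = 0.0732). In all 5 genes the sign was the same both ways, and all 1730 called genes kept their sign without replicate 1.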

How the data were processed

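Poly(A) RNA of KO and WT cells was sequenced as paired-end reads from stranded TruSeq libraries. Per the labels and the paper's methods, the authors trimmed reads with Trimmomatic 0.33, checked them with FastQC and quantified transcripts with kallisto 0.43.1 (builds named: GRCm38, mm10); the role of the 2 build names and the transcript set are not given in the sources used here. The deposited tables hold, for 115270 transcripts, estimated counts (expected counts, not scaled, not whole) and TPM, which the authors' tool divides by effective length and scales to a fixed total.

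Transcripts were matched to GENCODE M21 (113580, 98.5%); unmatched ones held 0.659% to 0.709% of counts and were left out. Both measures were added up per gene (35580 genes), and the counts were rounded. Depth was 29 to 38.5 M counts, so 3 counts, the floor, are 0.0784 to 0.104 CPM; this covers counting error only. Replicates differed by a chi-square of 11.0 to 32.4 per degree of freedom, so none was a copy of another.

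Groups came from the labels' titles. Counts of all 12 libraries were fitted in edgeR 4.0.16 (R 4.3.3; TMM, filterByExpr, robust quasi-likelihood, 1 mean per group), with the contrast KO 48 h minus KO 24 h, the same in WT and their difference, Benjamini-Hochberg adjusted, at 0.05. Alternatives used DESeq2 1.42.0, limma 3.58.1 on log2(TPM + 1) and log2(TPM + 0.1), other filters, fewer libraries, length offsets, a detected-genes covariate, a replicate block and leaving out each library. The edgeR fits with all libraries and without replicate 1 were tested on simulated counts. With all libraries 42 of 67 simulated 2-fold changes were recovered (62.7%). The simulated libraries did not hold the missing genes or the length differences of replicate 1, so the test says nothing of their effect.

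Named genes are the 10 largest rises and 10 largest falls called in the same direction with and without replicate 1. These were protein-coding, with a mean of at least 2 CPM. Also named are up to 4 called members per list with the largest change, plus those needed for their role, and genes the study measured. The rest are the 5 smallest adjusted p for the difference from WT, and the 5 largest changes called only with replicate 1 included. The comparison, the lists and the rule were chosen with earlier results of these data known; the interferon list, the genes named from it and further list members named were chosen after their values were seen. RefSeq promoters (GRCm38.p6) were searched for 2 motifs; several named genes had no entry and no sequence is shown for them. A few genes that the rule or the lists include are not reported here.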

Additional observations from a re-analysis of the deposited data

Results flagged for a closer look

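A total of 4 genes were noted because their change from 24 h to 48 h differed between the KO and WT in a test of the difference itself (edgeR, adjusted p under 0.05). The KO change minus the WT change, on the log2 scale, was 9.312 for *Tgtp1*, 19.46 for *Gm7332*, 1.085 for *Lefty1* and 2.04 for *Wt1*. *Tgtp1* and the processed pseudogene *Gm7332* had 0 counts in both KO libraries at 24 h, so the size of their fitted values depends on the prior count. *Gm7332* lost its call without replicate 1 at 24 h. The near-identical neighbour of *Tgtp1*, *Tgtp2*, had 15 counts in replicate 2 of the KO at 24 h. *Lefty1* and *Wt1* were counted in every library and kept the call without replicate 1 (1.09, adjusted p = 0.00647, and 2.26, adjusted p = 0.00389). Both were lower in the KO than in WT at 24 h (log2 differences of -1.39 and -2.30, both called), and the differences at 48 h did not pass (-0.30, adjusted p = 0.42, and -0.26, adjusted p = 0.94). No explanation for these differences was tested.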

How the results depend on the processing

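The genes called from 24 h to 48 h in the KO (1730) fell to 771 with only the 4 compared libraries, 823 with length offsets, 785 on log2(TPM + 1) and 702 on log2(TPM + 0.1), and ranged from 754 (without replicate 1 at 48 h) to 3726 (without replicate 2 at 24 h) when 1 library was left out. DESeq2 called 2228. Without replicate 1 (1523), alternatives chosen after seeing the data gave 597 with length offsets and 413 on log2(TPM + 1). For the difference between the KO and WT changes (4), DESeq2 called 22, no filter 97, a mean CPM filter 2, the compared libraries alone 2, length offsets 0, the covariate 7, log2(TPM + 1) 0 and log2(TPM + 0.1) 1, and leaving out 1 library gave 0 (either WT library at 48 h) to 861 (replicate 2 of the KO at 24 h). The counts of 0 came from edgeR and limma and left 863 (offsets), 969 (limma), 615 and 924 (WT libraries) genes at an unadjusted p under 0.05. Without replicate 1 (30), settings added after seeing the data gave 0 with length offsets, 12 with the covariate, 94 with DESeq2 and 0 on log2(TPM + 1), where 830 genes had an unadjusted p under 0.05. The cause of these shifts was not tested.

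Deviations from the group means, matched by replicate number, had a correlation of -0.0036 between the KO groups and 0.029 between the WT groups. This covered 17424 genes, those with few counts included, and the KO value holds the deviating replicate 1 at 24 h. It therefore cannot show whether libraries of the same replicate number shared a culture or a day. With a replicate block 1641 genes passed, and 5 for the difference. Uncalled genes changed sign as follows. *Plin1* (-0.49) was 0.11 with the replicate block and -2.65 to 0.74 when 1 library was left out (0.74 without replicate 1 at 24 h, 0.34 without replicate 1 at 48 h). *Plin2* (0.16) was -0.68 with length offsets, -0.54 on log2(TPM + 1), -0.58 on log2(TPM + 0.1) and -0.058 (without replicate 2 at 24 h) to 0.39 when 1 library was left out. The corresponding ranges were -0.33 to 0.14 for *Plin5*, -0.27 to 1.04 for *Cox7a1*, which was -0.17 with the covariate, and -0.74 to 0.065 for *Lipa*. Of the values of named genes under all alternatives 1621 kept their direction and side of the threshold, 228 lost their call, 6 gained one and 11 changed sign. With 3 counts as the floor, genes under about 0.1 CPM could not be compared at this depth.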
